A study of Mus musculus with 32 samples.

Results

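The 33 genes of branched-chain amino acid and acyl-CoA breakdown were found by matching their symbols to the Ensembl identifiers of the count tables, and all 33 were found among the 41388 genes counted. They encode the mitochondrial enzymes that take leucine, isoleucine and valine from the transaminase step to acetyl-CoA, acetoacetate and succinyl-CoA, the kinase that controls the committed step, and some enzymes shared with fatty acid oxidation. All 33 passed the filter on low counts in the main comparison. Valine, leucine and isoleucine degradation is a pathway the study itself singled out as lower with IL-1β on libraries of this series. It listed propanoate, butanoate and fatty acid metabolism as lower too. The counts of genes below are therefore not independent evidence of the direction of these pathways.

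RNA was sequenced from primary chondrocytes of the sternum and ribs of newborn C57BL/6 mice, taken without regard to sex and cultured in medium with serum without passaging, in 32 libraries that form 16 groups of 2. Of these, 24 libraries come from cells labelled flox for Ldha (lactate dehydrogenase A), Nampt (the rate-limiting enzyme of NAD salvage) or Nfkbiz (IκB-ζ, a nuclear cofactor of NF-κB). Whether the Nampt flox cells carry the floxed allele on both chromosomes is not given in the sources used here. Each floxed line received an adenovirus that carried either eGFP (called GFP) or Cre together with eGFP (called Cre), and was then left without or treated with IL-1β, an inflammatory cytokine, at 10 ng/mL for 24 h. The other 8 libraries are wild-type chondrocytes left untreated or given IL-1β, FX11 (a small-molecule inhibitor of LDHA, 40 µM) or both for 24 h, without virus. No wild-type cells were given Cre virus, so effects of the Cre virus and of the deletion cannot be told apart. The titles of the libraries come in 2 styles, here called set 1 (12 libraries) and set 2 (20 libraries), and each group of wild-type cells and of the Ldha and Nampt flox lines holds 1 library of each set, while both Nfkbiz flox libraries of a group are in set 2. Nothing in the labels says that the libraries of a group were separate cultures or litters, so p-values measure the spread between these libraries, which may be technical.

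In this pathway the cytosolic and mitochondrial transaminases first turn the branched-chain amino acids into keto acids. The branched-chain ketoacid dehydrogenase (BCKDH) complex then removes carbon dioxide irreversibly, and it is switched off when its kinase phosphorylates the decarboxylase subunit. Acyl-CoA dehydrogenases, hydratases, carboxylases and thiolases finish the work, leucine giving acetoacetate and acetyl-CoA, and valine and part of isoleucine giving propionyl-CoA, which a biotin enzyme and a cobalamin enzyme turn into succinyl-CoA.

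Promoter windows, from 250 bases before to 50 bases after the start of transcription, were taken from RefSeq (GRCm38.p6), where 27 of the 33 genes had an entry. Some genes, Bckdhb and Bcat1 among them, had a second start listed there, so that there were 32 windows, and 1 window of each is shown. Bckdha and Bckdhb are shown because their products form the decarboxylase of the BCKDH complex and their counts moved in opposite directions with IL-1β. Bcat1 is shown as the most abundant transaminase, with the AP-1 letters TGANTCA in capitals, and Hadhb because it encodes, with Hadha, the mitochondrial trifunctional protein from a shared promoter region.
Bckdha, chr7:25658712-25659011, minus strand: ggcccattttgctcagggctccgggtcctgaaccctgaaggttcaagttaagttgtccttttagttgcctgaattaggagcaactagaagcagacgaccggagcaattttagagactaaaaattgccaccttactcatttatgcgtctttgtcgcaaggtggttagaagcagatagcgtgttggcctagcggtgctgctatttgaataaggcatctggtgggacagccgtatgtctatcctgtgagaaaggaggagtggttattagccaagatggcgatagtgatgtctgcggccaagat
Bckdhb, chr9:83924887-83925186, plus strand: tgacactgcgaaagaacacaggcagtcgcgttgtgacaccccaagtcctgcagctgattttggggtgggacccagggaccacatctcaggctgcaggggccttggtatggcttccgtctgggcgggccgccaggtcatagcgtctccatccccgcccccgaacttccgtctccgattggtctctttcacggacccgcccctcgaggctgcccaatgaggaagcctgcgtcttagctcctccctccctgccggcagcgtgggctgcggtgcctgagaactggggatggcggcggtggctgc
Bcat1, chr6:145076108-145076407, minus strand: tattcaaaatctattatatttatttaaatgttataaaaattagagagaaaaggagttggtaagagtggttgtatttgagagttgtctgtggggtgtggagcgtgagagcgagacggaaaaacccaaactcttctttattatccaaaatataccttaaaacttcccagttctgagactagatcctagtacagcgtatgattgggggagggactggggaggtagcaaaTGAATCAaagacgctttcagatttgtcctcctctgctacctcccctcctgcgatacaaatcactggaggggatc
Hadhb, chr5:30155003-30155302, plus strand: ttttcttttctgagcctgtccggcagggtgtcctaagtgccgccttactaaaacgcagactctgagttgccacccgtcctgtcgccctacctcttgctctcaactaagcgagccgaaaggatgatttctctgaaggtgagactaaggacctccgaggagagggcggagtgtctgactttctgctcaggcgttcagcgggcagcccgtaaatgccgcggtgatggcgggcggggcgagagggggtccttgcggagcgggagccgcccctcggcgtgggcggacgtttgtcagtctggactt
Hadha starts 273 bases from Hadhb on the other strand, and its window, chr5:30154931-30155230, shares 228 bases with the one shown. The letters TGANTCA were found on either strand in 2 of the 32 windows of these genes, those of Bcat1 and Acadsb (6.25%), against 7.81% of all 32851 windows. The letters AAGGTCA, part of the site of estrogen-related receptors, were found in the window of Acadm (3.13% against 4.72% of all windows), and the NF-κB type letters GGGANTTNCC in none of the 32 (1.20% of all windows). No window held more than 1 of the 3 motifs, and a match is only a match of letters.

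Library totals ran from 15830658 to 39959888 counts with a median of 25363482. Levels are given as CPM (counts scaled to the size of the library), with TMM factors over the 32 libraries, or as CPM per kilobase of transcript where genes are compared with each other. The targeted genes were lower in their Cre libraries. Ldha fell from 937 and 876 CPM with GFP to 120 and 111 CPM with Cre, Nampt from 60.1 and 54.7 to 6.77 and 6.80 CPM, and Nfkbiz, which IL-1β raised, from 233 and 228 to 29.1 and 31.95 CPM in the libraries with IL-1β. The chondrocyte markers Col2a1 and Acan were at 10889 CPM or more and 769 CPM or more in the 24 floxed libraries. The summed level of 9 chondrocyte markers was 70740 to 90583 CPM in the GFP libraries without IL-1β and 25268 to 31602 CPM in those with it, and all 9 fell. Markers of other cells differed in level in the 24 floxed libraries. The 7 fibroblast and perichondrium markers summed to 938 to 6113 CPM, with Col1a1 at 343 to 3568 CPM, whereas the sums for adipocytes, muscle, leukocytes and endothelium were 19.0 to 95.4, 12.0 to 115, 13.5 to 55.9 and 2.82 to 26.5 CPM. In these last lists Fabp4 reached 64.3, Lpl 57.9, Tnnt3 83.8, Cd68 45.7 and Kdr 21.8 CPM. In the same 24 libraries Adipoq, the defining adipocyte gene, stayed at or below 0.878 CPM and was at 0 in 2. The muscle gene Ckm stayed at or below 0.376 CPM and was at 0 in 7, and the leukocyte gene Ptprc stayed at or below 1.22 CPM. Among wild-type libraries, 2 of set 2 ran against their labels. The library labelled IL-1β held 0.790 CPM of Mmp3 and 17.3 CPM of Lcn2, which IL-1β induces, whereas the library labelled FX11 held 2033 and 12645 CPM.

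With IL-1β, the genes of branched-chain amino acid breakdown were mostly lower in the floxed cells that carried GFP virus. Over 6 libraries with IL-1β and 6 without, 25 of the 33 genes fell and 2 rose at an adjusted p of 0.05 or less, against 28.3% and 28.0% of the 14283 genes tested that fell or rose. The median log2 fold change of the 33 genes was -0.33, and that of all genes tested was -0.0083. For 15 of the 33 genes, all 6 libraries with IL-1β lay below all 6 without, which 10.9% of the genes tested did, and for none did all 6 lie above, which 9.58% did. In bulk RNA, fewer cells that hold a transcript and less transcript in each cell cannot be told apart. Other marker sums also moved in these GFP libraries. The hypertrophic chondrocyte sum was 121 to 702 CPM without and 38.6 to 162 CPM with IL-1β, where 4 of 4 markers fell, and the muscle sum was 76.4 to 115 and 12.0 to 54.9 CPM, where 2 of 6 tested fell. The leukocyte sum was 13.5 to 24.4 and 24.0 to 50.9 CPM, where 3 of 4 tested rose. Fibroblast markers split, with 2 higher and 4 lower of 7, and the adipocyte sum went from 46.1 and 46.9 CPM to 95.2 and 95.4 CPM in Nfkbiz flox cells but was lower with IL-1β in the other lines. The part of any of these markers in the results was not tested.

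**Figure D1:**
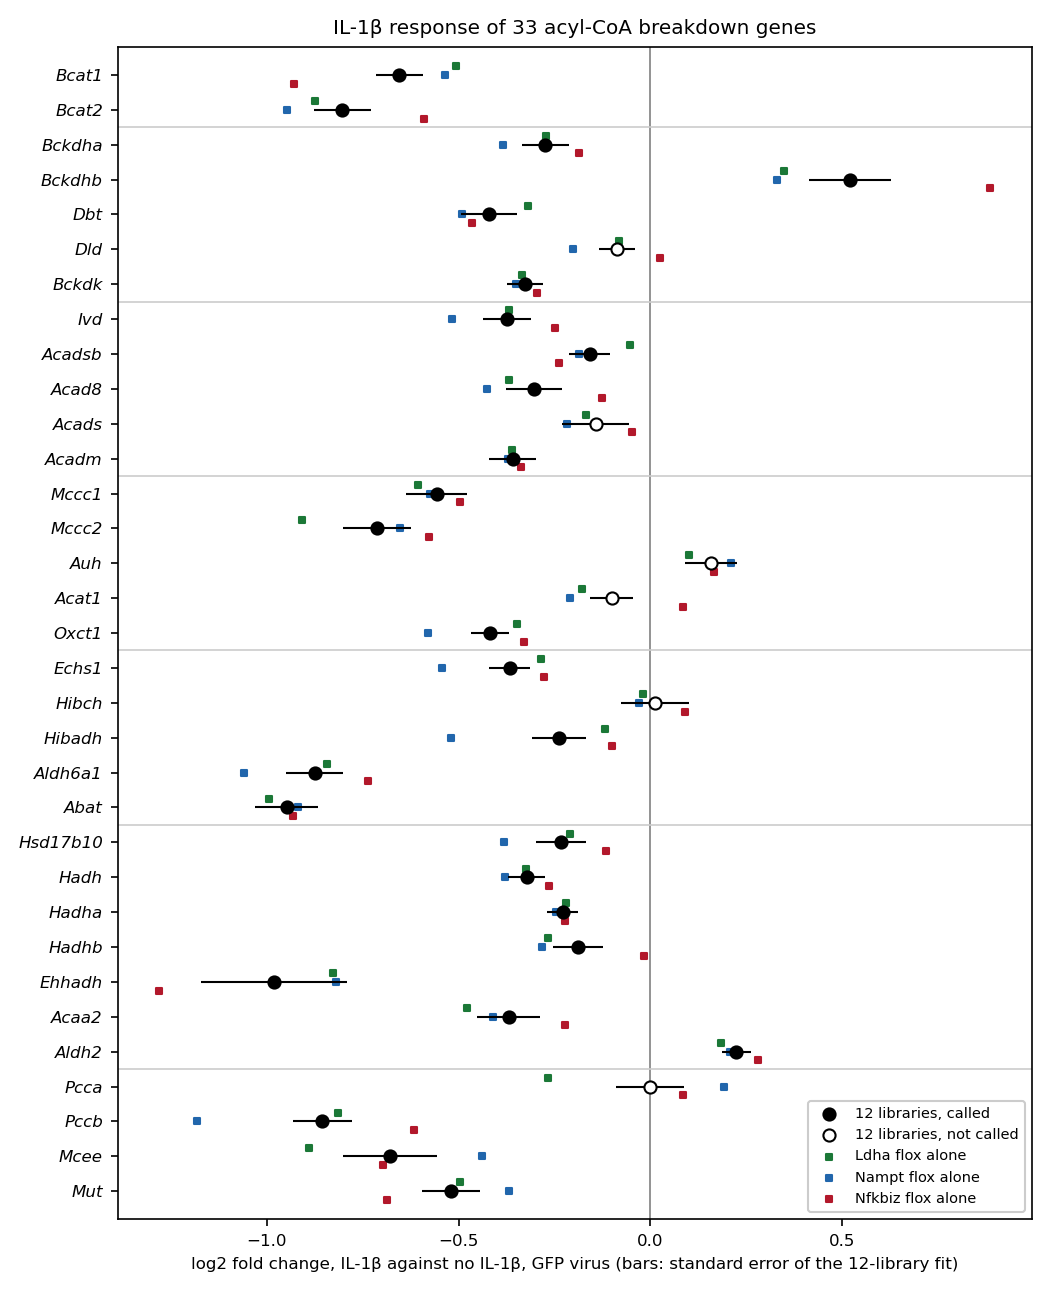
Each row is 1 of the 33 genes, ordered by role, and the horizontal axis gives the log2 fold change of IL-1β against no IL-1β with GFP virus. Circles are the fit over 12 libraries with its standard error (filled where called), and small squares are the fits within the Ldha, Nampt and Nfkbiz flox lines. All called circles lie left of 0 except those of Bckdhb at 0.52 and Aldh2 at 0.22.

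Both transaminases were among the genes that fell. Bcat1, the cytosolic transaminase, was at 219, 259 and 285 CPM (lowest, median and highest of 6 libraries) without IL-1β and at 113, 177 and 193.5 CPM with it. Bcat2, the mitochondrial transaminase, was at 28.1, 31.7 and 36.6 CPM without and at 15.6, 17.4 and 21.5 CPM with IL-1β. For neither gene did the groups overlap. The log2 fold change was -0.65 (SE 0.061, adjusted p = 9.98e-08) for Bcat1 and -0.80 (SE 0.075, adjusted p = 1.02e-07) for Bcat2. Per kilobase, Bcat1 (27.8 CPM/kb) stood well above Bcat2 (8.13 CPM/kb) in the median library without IL-1β.

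The subunits of the BCKDH complex did not move together. Bckdhb, the beta subunit of the decarboxylase, was at 8.91, 9.73 and 11.9 CPM without IL-1β and at 11.0, 14.2 and 20.6 CPM with it, so that the groups overlapped slightly, and it was higher with IL-1β in 6 of 6 pairs of libraries of the same line and library number. Its partner Bckdha, the alpha subunit, was at 20.4, 23.4 and 36.3 CPM without and at 14.3, 18.6 and 32.3 CPM with IL-1β. The ranges of Bckdha overlapped because the Nfkbiz flox libraries stood above those of the other lines, and it was lower in 6 of 6 pairs. Bckdhb rose by 0.52 on the log2 scale (SE 0.107, adjusted p = 5.36e-04), whereas Bckdha fell by 0.27 (SE 0.062, adjusted p = 0.00119). The ratio of Bckdhb to Bckdha per kilobase was 0.260 to 0.576 over the 6 libraries without IL-1β and 0.503 to 0.942 over the 6 with it. Dbt, the transacylase core, fell by 0.42 (SE 0.074, adjusted p = 1.26e-04), from a median of 16.5 to 12.0 CPM with no overlap. Dld, the dihydrolipoyl dehydrogenase shared with the pyruvate and oxoglutarate complexes, was not called, with medians of 72.9 and 67.3 CPM (log2 fold change -0.09, SE 0.047, adjusted p = 0.131). Bckdk, the inhibitory kinase, fell by 0.33 (SE 0.047, adjusted p = 1.68e-05), from 70.6 to 85.8 CPM without IL-1β to 55.7 to 68.8 CPM with it.

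Of the 5 acyl-CoA dehydrogenases, 4 fell, and Ivd, Acadsb and Acad8 are the ones that act next after the complex. Ivd, isovaleryl-CoA dehydrogenase of the leucine branch, was at 32.1 to 37.9 CPM without and 20.2 to 31.8 CPM with IL-1β (log2 fold change -0.37, adjusted p = 8.32e-05). Acad8, which acts on the valine branch, fell by 0.30 (adjusted p = 0.0019) without overlap, and the medium-chain dehydrogenase Acadm by 0.36 (adjusted p = 9.23e-05) with overlapping groups. Acadsb, of the isoleucine branch, had the smallest change called among the 33, at -0.16 (SE 0.053, adjusted p = 0.0171). Leaving out Nampt flox GFP library 1 or Nfkbiz flox GFP and IL-1β library 1 ended the call of Acadsb (adjusted p = 0.0639 and 0.0521). The short-chain dehydrogenase Acads was not called (log2 fold change -0.14, adjusted p = 0.176).

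In the leucine branch both subunits of methylcrotonyl-CoA carboxylase were lower. Mccc2, the carboxyltransferase subunit, was at 10.9, 14.1 and 17.0 CPM without and at 7.00, 8.15 and 9.99 CPM with IL-1β, with no overlap, and Mccc1, the biotin subunit, was at medians of 16.1 and 10.4 CPM with overlapping ranges. The log2 fold change was -0.71 (SE 0.089, adjusted p = 3.53e-06) for Mccc2 and -0.56 (SE 0.079, adjusted p = 1.33e-05) for Mccc1. Auh, the hydratase that follows, had the lowest level per kilobase of the 33 genes (1.23 CPM/kb) and was not called (log2 fold change 0.16, adjusted p = 0.0598). At the end of the branch, Oxct1, which activates acetoacetate for oxidation, fell from 94.0, 106 and 113 CPM to 67.7, 77.7 and 85.2 CPM (log2 fold change -0.42, SE 0.050, adjusted p = 1.88e-06). Acat1, the mitochondrial acetoacetyl-CoA thiolase, was at medians of 57.1 and 50.2 CPM and was not called (log2 fold change -0.10, adjusted p = 0.143).

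The valine branch held 2 of the largest changes. Aldh6a1, methylmalonate semialdehyde dehydrogenase, was at 22.0, 27.3 and 39.8 CPM without IL-1β and at 10.5, 14.3 and 21.6 CPM with it. Abat, a mitochondrial transaminase of gamma-aminobutyrate and of the beta-amino acid made from valine's semialdehyde, was at 18.9, 22.7 and 35.1 CPM without and at 9.62, 11.1 and 21.4 CPM with IL-1β. The groups of Aldh6a1 did not overlap, and those of Abat overlapped only through the Nfkbiz flox libraries, which stood above the others in both groups. Aldh6a1 fell by 0.88 on the log2 scale (SE 0.073, adjusted p = 2.55e-08) and Abat by 0.95 (SE 0.083, adjusted p = 4.34e-08). Echs1, the enoyl-CoA hydratase, fell by 0.37 (adjusted p = 2.14e-05) and Hibadh, the hydroxyisobutyrate dehydrogenase, by 0.24 (adjusted p = 0.00839). Hibch, the hydrolase between them, was at medians of 11.7 and 11.4 CPM with a log2 fold change of 0.01 (SE 0.088, adjusted p = 0.914).

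Of the 7 genes of the isoleucine branch and of shared beta-oxidation, 6 fell and 1 rose. Hadha, the alpha subunit of the trifunctional protein, was at 126, 136 and 149 CPM without and at 104, 114 and 122 CPM with IL-1β. Hadhb, its beta subunit, was at 25.3, 30.1 and 33.2 CPM without and at 22.3, 25.3 and 28.7 CPM with IL-1β. The groups of Hadha did not overlap and those of Hadhb did. The log2 fold changes were -0.23 (SE 0.040, adjusted p = 1.28e-04) for Hadha and -0.19 (SE 0.065, adjusted p = 0.0203) for Hadhb. Leaving out 1 of 4 libraries (Nampt flox GFP library 1, Nampt flox GFP and IL-1β library 1, Ldha flox GFP library 2, or Ldha flox GFP and IL-1β library 2) ended the call of Hadhb, with adjusted p-values of 0.0509 to 0.110. Hadh, the short-chain hydroxyacyl-CoA dehydrogenase, fell by 0.32 (adjusted p = 2.36e-05) without overlap, Acaa2, a mitochondrial thiolase, by 0.37 (adjusted p = 0.00103) and Hsd17b10, a hydroxyacyl-CoA dehydrogenase of the isoleucine branch, by 0.23 (adjusted p = 0.00532). Ehhadh, the peroxisomal bifunctional enzyme, had the largest change of the 33, from 2.69, 3.83 and 5.12 CPM to 0.843, 1.99 and 2.58 CPM (log2 fold change -0.98, SE 0.191, adjusted p = 3.36e-04), at a level that left it with the largest standard error. Aldh2, the mitochondrial aldehyde dehydrogenase, was the gene with the highest level per kilobase (42.5 CPM/kb) and rose by 0.22 (SE 0.038, adjusted p = 8.63e-05), from 172, 200 and 236 CPM to 194, 222 and 282 CPM, higher in 6 of 6 pairs.

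The propionyl-CoA branch split at its first enzyme. Pccb, the carboxyltransferase subunit of propionyl-CoA carboxylase, was at 29.1, 32.6 and 42.5 CPM without and at 11.9, 17.8 and 27.3 CPM with IL-1β. Pcca, its biotin subunit, was at 11.48, 14.7 and 17.3 CPM without and at 12.7, 14.3 and 16.6 CPM with IL-1β. No library of Pccb with IL-1β reached the lowest without it, whereas the ranges of Pcca lay over each other and 3 of 6 pairs were lower. Pccb fell by 0.86 on the log2 scale (SE 0.077, adjusted p = 6.33e-08), and the estimate for Pcca was 0.00 in size (SE 0.090, adjusted p = 0.995). Downstream, the epimerase Mcee fell by 0.68 (SE 0.122, adjusted p = 1.56e-04) and the cobalamin-dependent mutase Mut by 0.52 (SE 0.076, adjusted p = 2.08e-05), Mut from 15.1 to 22.0 CPM without IL-1β to 10.5 to 14.2 CPM with it.

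The fall was also seen with the sets of libraries taken alone. With set 2 alone 22 of the 33 genes fell and 2 rose (21.4% and 23.4% of all genes tested), and with set 1 alone, 2 libraries against 2, 23 fell and 1 rose (22.4% and 22.5%). In set 1 alone the rise of Bckdhb was 0.29 (adjusted p = 0.0739). Reads on 8 of the genes (Bcat1, Bcat2, Mccc1, Oxct1, Aldh6a1, Hadha, Pcca and Mut) can also come from genes that overlap their exons on the other strand, since the use of strand in counting is not stated.

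Within each floxed line the IL-1β response with GFP virus was in the same direction. For Ldha flox cells, 16 of the 33 genes fell and 0 rose (13.3% and 14.5% of 15880 genes tested), in Nampt flox cells 19 fell and 0 rose (17.3% and 17.7% of 16136), and in Nfkbiz flox cells 11 fell and 1 rose (11.7% and 15.2% of 15356). The median log2 fold change of the 33 genes was -0.33 in Ldha flox, -0.39 in Nampt flox and -0.25 in Nfkbiz flox cells, and that of all genes tested was 0.00017, 0.0042 and 0.0026. For every one of these called genes the 2 libraries with IL-1β lay on 1 side of the 2 without. With 2 libraries a group this goes with the call itself, so it is no further support, here or for the groups of 2 below. Among the genes called in Ldha flox cells, the 4 largest falls were those of Abat (-0.99), Mccc2 (-0.91), Mcee (-0.89) and Bcat2 (-0.87), and the 4 smallest those of Echs1 (-0.29), Hadh (-0.32), Bckdk (-0.34) and Oxct1 (-0.35). Those of Nampt flox cells were Pccb (-1.18), Aldh6a1 (-1.06), Bcat2 (-0.95) and Abat (-0.92), against Hadha (-0.24), Bckdk (-0.35), Mut (-0.37) and Hadh (-0.38). The 1 gene that rose in Nfkbiz flox cells was Bckdhb, by 0.89 (SE 0.194, adjusted p = 0.00454), while Ehhadh (-1.28), Abat (-0.93), Bcat1 (-0.93) and Aldh6a1 (-0.74) fell most and Oxct1 (-0.33), Mccc1 (-0.50) and Mccc2 (-0.58) least. Leaving out 1 library moved the count in Ldha flox cells to 10 (without GFP library 1) and 8 (without GFP and IL-1β library 2), and in Nfkbiz flox cells to 7 (without GFP library 1) and 5 (without GFP and IL-1β library 2). Without that last library the rise of Bckdhb in Nfkbiz flox cells was 0.63 (adjusted p = 0.0811).

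The response of 1 gene differed between the lines. Bcat1 fell by 0.51 in Ldha flox, 0.53 in Nampt flox and 0.93 in Nfkbiz flox cells, a difference with adjusted p = 0.0137 in an F test over 24 libraries, and 3.39% of the 16727 genes tested differed. Bcat1 was at 229 and 219 CPM in the Nfkbiz flox GFP libraries and at 113 and 119 CPM with IL-1β, where the other lines stayed at 176 to 193.5 CPM. The call was lost without Nfkbiz flox GFP library 1 or without Nfkbiz flox GFP and IL-1β library 1. No other of the 33 genes was called, and 4 of the 33, Bcat1 included, had an unadjusted p under 0.05. Here and below, counts at an unadjusted p under 0.05 are given without the share of all genes at that cutoff. The percentages beside them are shares of adjusted calls, so these counts are not set against a background.

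Cre virus without IL-1β was called on few of these genes. Of the 33 genes, 1 rose and 4 fell in Nampt flox cells (8.30% and 6.07% of all genes tested), and for Ldha flox (3.43% and 2.09% of all genes) and for Nfkbiz flox cells (0.111% and 0.150% of all genes) 0 were called by edgeR's quasi-likelihood test. In the Ldha and Nampt lines libraries of the same number share a title set, and with that number as a block 1 of the 33 genes rose and 4 fell in Ldha flox cells (6.47% and 6.08% of all genes) and 2 rose and 9 fell in Nampt flox cells (13.2% and 13.5%). At an unadjusted p under 0.05, without the block, there were 6 genes in the Ldha flox line and 1 in the Nfkbiz flox line. No share of all genes at that cutoff is given. DESeq2 and limma each called 1 and 0 in these lines. The median log2 fold change over the 33 genes was -0.11, -0.10 and -0.02 in the Nampt, Ldha and Nfkbiz flox lines, against -0.02, -0.02 and -0.0023 over all genes. Bcat1 in Nampt flox cells was at 273 and 260 CPM with GFP and at 217 and 203 CPM with Cre, and Dbt at 16.6 and 18.8 CPM against 13.2 and 12.3 CPM. Acadsb was at 36.3 and 34.8 CPM with GFP and at 28.8 and 26.3 CPM with Cre, and Aldh2 at 179 and 202 CPM against 231 and 262 CPM. The 2 libraries of a group stayed on 1 side of the other group for each of them. The log2 fold changes were -0.34 for Bcat1 (SE 0.057, adjusted p = 0.00226), -0.46 for Dbt (SE 0.123, adjusted p = 0.0298), -0.37 for Acadsb (SE 0.080, adjusted p = 0.0111), -0.39 for Echs1 (SE 0.102, adjusted p = 0.0260) and 0.37 for Aldh2 (SE 0.098, adjusted p = 0.0283). The other subunits of the complex, Bckdha, Bckdhb and Dld, and Bcat2, the partner of Bcat1 in its reaction, were not called. Without Nampt flox GFP library 1, GFP library 2 or Cre library 2, 2, 3 and 2 of the 33 genes were called, and the call of Bcat1 was the 1 that no omission ended. In the same cells without IL-1β, 9 of 9 chondrocyte markers fell with Cre, their sum going from 70740 and 71190 CPM to 48417 and 49697 CPM, and its part in these changes was not tested.

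With IL-1β present, Cre virus changed many more of these genes in the Ldha and Nampt flox lines, and in both directions. Of the 33 genes in Ldha flox cells, 7 rose and 8 fell (16.9% and 17.0% of all genes tested), in Nampt flox cells 6 rose and 7 fell (25.0% and 23.4%), and in Nfkbiz flox cells 3 rose and 1 fell (8.16% and 9.20%). In Ldha flox cells these counts lay somewhat above the shares of all genes, and in Nampt flox cells below them. In Nfkbiz flox cells the rises were near the share of all genes and the falls below it. With the library number as a block, 8 rose and 12 fell in Nampt flox cells (29.2% and 29.1% of all genes). The median log2 fold change of the 33 genes was -0.05 in Ldha flox, -0.0013 in Nampt flox and 0.15 in Nfkbiz flox cells, against -0.02, -0.03 and -0.0087 over all genes. Of the 33 genes, 5 rose in both the Ldha and the Nampt flox line, namely Abat, Acads, Aldh2, Bcat2 and Hadh, as did 15.8% of the 15525 genes tested in both. A further 6 of the 33 fell in both, namely Acadsb, Bcat1, Bckdhb, Bckdk, Dbt and Mut, as did 14.8% of all genes tested in both. In all 3 lines Abat rose and Bckdhb fell, as did 3.48% and 3.99% of the 14793 genes tested in all 3, so these counts are near those over all genes.

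**Figure D2:**
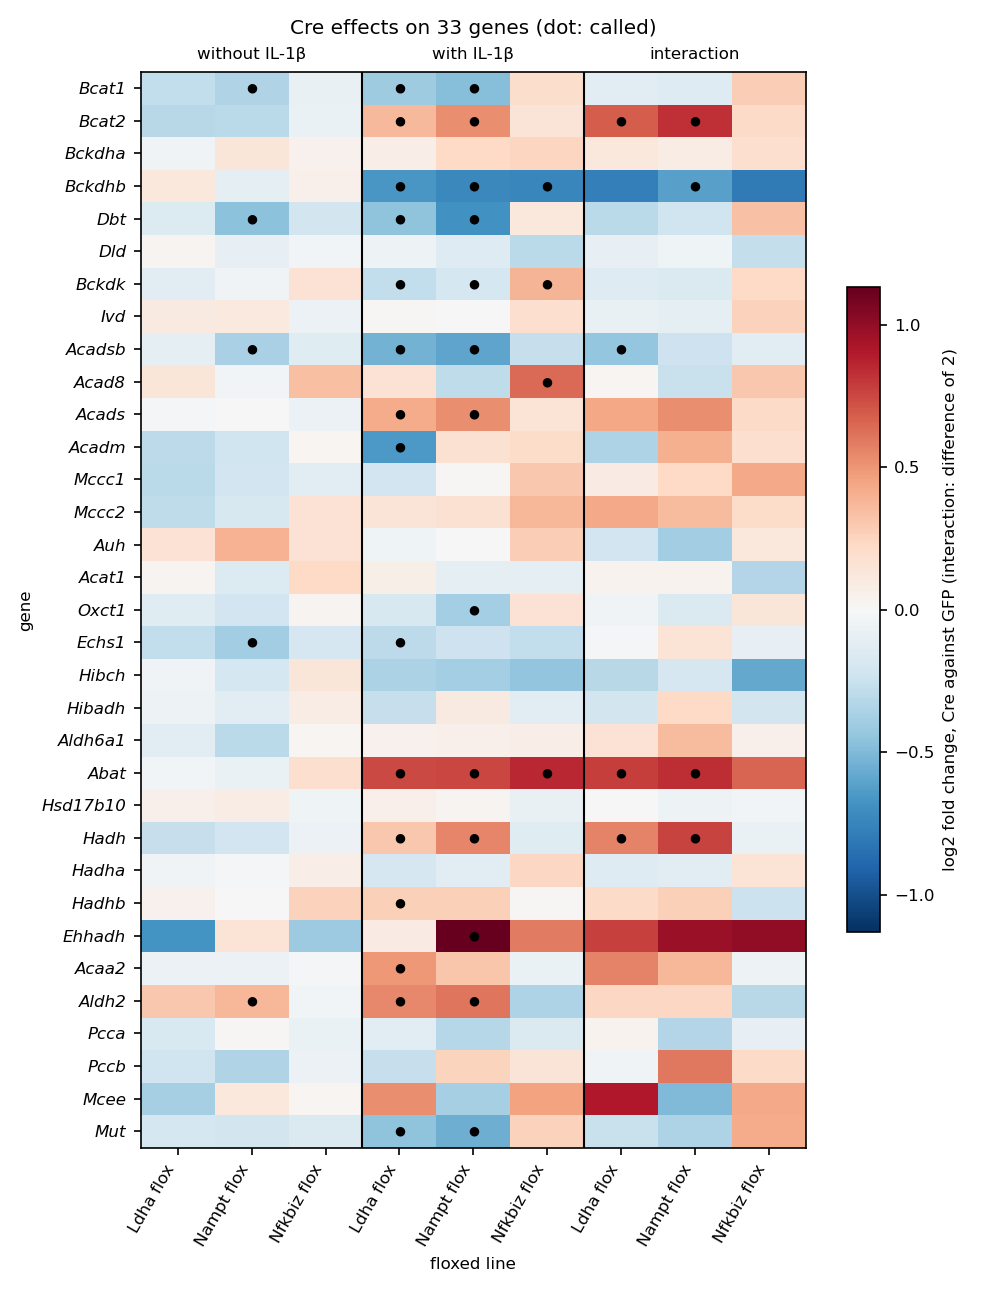
Rows are the 33 genes and columns the 3 floxed lines for Cre without IL-1β, Cre with IL-1β and the difference between these 2 effects. Colour gives the log2 fold change of Cre against GFP (red higher, blue lower) and a dot marks a called gene. The rows of Abat and Bckdhb carry dots in all 3 lines with IL-1β and in none without it. For the difference between the effects, Abat carries dots in the Ldha and Nampt flox lines and Bckdhb in the Nampt flox line alone.

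With IL-1β present, Bckdhb was lower with Cre in every line. A difference of this effect from that without IL-1β was called in Nampt flox cells alone. Its level in Ldha flox cells was 11.0 and 11.52 CPM with GFP and IL-1β and 8.23 and 5.64 CPM with Cre and IL-1β. Its level in Nampt flox cells was 13.7 and 14.8 CPM and 9.27 and 7.87 CPM. Its level in Nfkbiz flox cells was 14.7 and 20.6 CPM and 12.2 and 9.03 CPM. The Cre libraries lay below the GFP libraries in each line, in the range the gene held in GFP libraries without IL-1β (8.91 to 11.9 CPM) or under it, apart from 1 Nfkbiz flox library just above. The same GFP libraries with IL-1β enter the IL-1β comparison under GFP virus. A stray value in them would move the 2 effects in opposite directions, so the effects are not independent, here and for Abat below. The log2 fold change was -0.66 (SE 0.186, adjusted p = 0.0212), -0.73 (SE 0.127, adjusted p = 7.55e-04) and -0.74 (SE 0.193, adjusted p = 0.0189) in the Ldha, Nampt and Nfkbiz flox lines. Bckdha, its partner, was called in none of the lines. The Bckdhb to Bckdha ratio per kilobase was 0.240 to 0.522 over the 6 Cre libraries with IL-1β. The call of Bckdhb was lost without either GFP and IL-1β library or without Cre and IL-1β library 2 in Ldha flox cells. The call in Nfkbiz flox cells was lost without GFP and IL-1β library 2, where the log2 fold change was -0.48 (adjusted p = 0.235), or without Cre and IL-1β library 2 (adjusted p = 0.111). That in Nampt flox cells held with each library left out.

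Abat moved the other way. It was at 22.5 and 19.7 CPM with GFP in Ldha flox cells, 11.1 and 9.62 CPM with GFP and IL-1β, and 17.9 and 16.2 CPM with Cre and IL-1β. The same groups of Nampt flox cells were at 22.8 and 18.9, 10.3 and 11.1, and 20.5 and 15.2 CPM. Those of Nfkbiz flox cells were at 34.4 and 35.1, 21.4 and 14.7, and 33.2 and 32.04 CPM. In each line the Cre libraries with IL-1β lay above the GFP libraries with IL-1β, and in no line did Cre without IL-1β have a called effect on Abat. The log2 fold change of Cre with IL-1β was 0.75 (SE 0.116, adjusted p = 8.29e-04), 0.75 (SE 0.152, adjusted p = 0.00191) and 0.85 (SE 0.150, adjusted p = 0.00177), and all 3 calls held with each library left out.

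**Figure D3:**
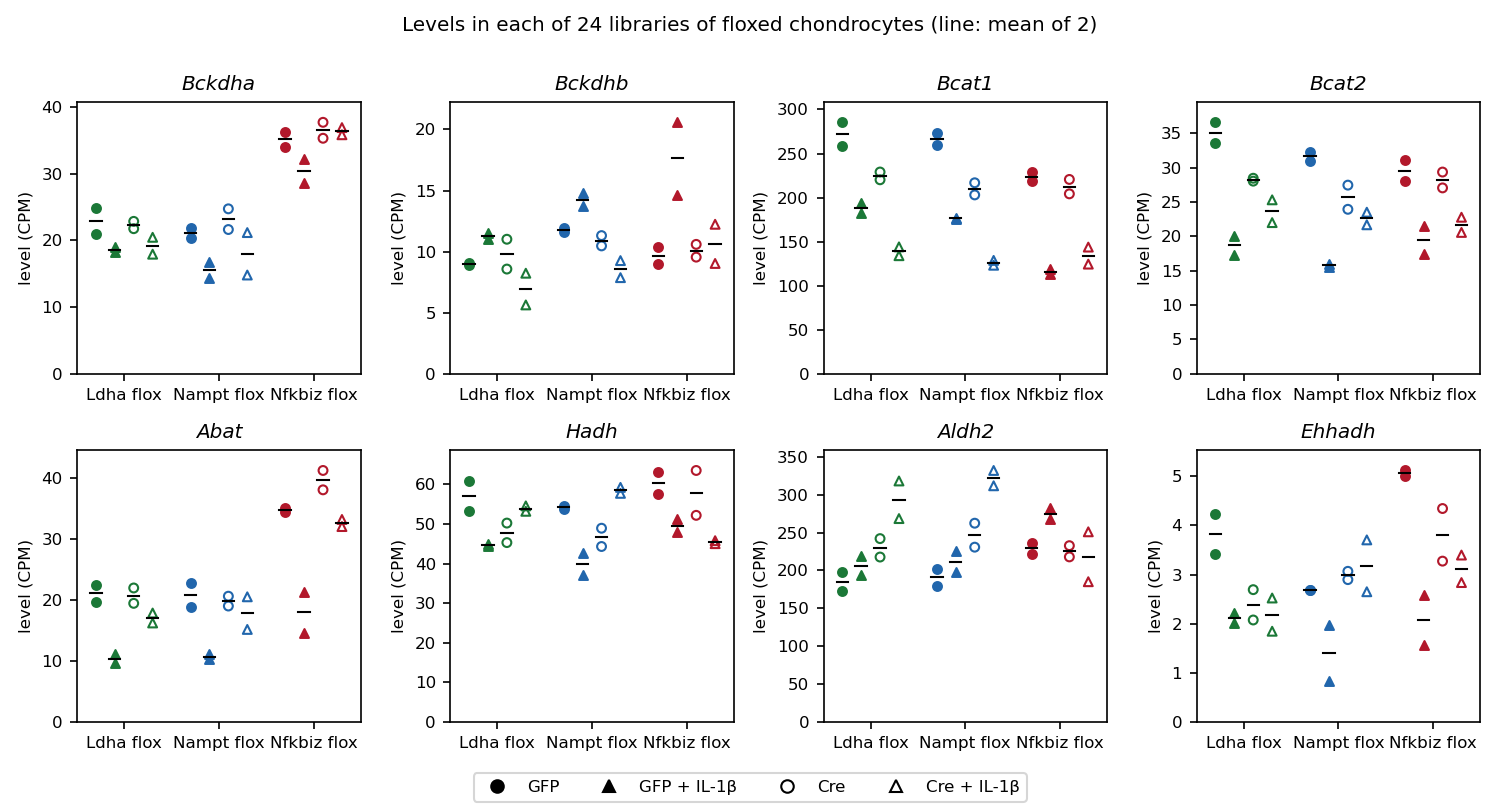
Each panel gives 1 gene's level in CPM, from 0, in the 24 floxed libraries, with filled circles for GFP, filled triangles for GFP and IL-1β, open circles for Cre, open triangles for Cre and IL-1β, and a line at the mean of each pair. For Abat the open triangles stand above the filled ones in each line, and for Bckdhb they stand under them.

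Among Ldha flox cells with IL-1β, the 4 largest rises with Cre were those of Abat, Aldh2 (0.54, SE 0.125, adjusted p = 0.00815), Acaa2 (0.49, SE 0.167, adjusted p = 0.0466) and Acads (0.42, SE 0.120, adjusted p = 0.0214). The 4 largest falls were those of Bckdhb, Acadm (-0.65, SE 0.150, adjusted p = 0.00848), Acadsb (-0.54, SE 0.087, adjusted p = 0.00106) and Mut (-0.46, SE 0.129, adjusted p = 0.0212). Aldh2 went from 194 and 219 CPM with GFP and IL-1β to 269 and 318 CPM with Cre and IL-1β, and Acadm from 18.5 and 14.2 to 11.52 and 8.89 CPM. Acadsb went from 33.97 and 30.1 to 22.7 and 20.5 CPM. These groups of 2 did not overlap. Only 3 of the 15 calls, those of Abat, Acadsb and Bcat1, held with each library left out. The count fell from 15 to 7 without GFP and IL-1β library 1, to 5 without GFP and IL-1β library 2, and to 8 without either Cre and IL-1β library, and without Cre and IL-1β library 1 the value of Acaa2 was 0.26 (adjusted p = 0.329).

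Among Nampt flox cells with IL-1β, the largest rises with Cre were those of Ehhadh (1.13, SE 0.348, adjusted p = 0.0203), Abat, Aldh2 (0.61, SE 0.098, adjusted p = 4.49e-04) and Hadh (0.55, SE 0.080, adjusted p = 2.08e-04). The largest falls were those of Bckdhb, Dbt (-0.69, SE 0.131, adjusted p = 0.00135), Acadsb (-0.60, SE 0.083, adjusted p = 1.44e-04) and Mut (-0.56, SE 0.123, adjusted p = 0.00341). Aldh2 went from 198 and 225 CPM to 312 and 332 CPM, Dbt from 12.4 and 11.7 CPM to 8.06 and 6.81 CPM, and Acadsb from 29.7 and 30.4 CPM to 19.9 and 19.6 CPM. None of these groups overlapped. Ehhadh, at 1.98 and 0.843 CPM with GFP and 3.71 and 2.65 CPM with Cre, rested on few counts, and without GFP and IL-1β library 2 its value was 0.71 (adjusted p = 0.112) and without Cre and IL-1β library 1 it was 0.85 (adjusted p = 0.148). Of the 13 calls, 10 held with each library left out.

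Among Nfkbiz flox cells with IL-1β, Acad8 (0.65, SE 0.147, adjusted p = 0.00888) and Bckdk (0.38, SE 0.113, adjusted p = 0.0346) rose with Abat. Acad8 went from 16.6 and 16.2 CPM to 21.8 and 30.0 CPM, and Bckdk from 57.1 and 63.8 CPM to 84.3 and 74.7 CPM. The groups did not overlap. The call of Bckdk was lost without either GFP and IL-1β library or Cre and IL-1β library 1, and that of Acad8 without either GFP and IL-1β library or Cre and IL-1β library 2, where its value was 0.40 (adjusted p = 0.0566). The count was 2, 1, 9 and 2 without GFP and IL-1β library 1, GFP and IL-1β library 2, Cre and IL-1β library 1 and Cre and IL-1β library 2, against 4.

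The summed chondrocyte markers moved with Cre as well in the libraries with IL-1β, from 26223 and 26392 to 13165 and 14550 CPM in Ldha flox, from 25268 and 26197 to 14254 and 15004 CPM in Nampt flox, and from 29543 and 31602 to 35453 and 38218 CPM in Nfkbiz flox cells. Of the 9 markers, 8 fell in Ldha flox, 7 fell in Nampt flox and 2 rose in Nfkbiz flox cells. All 7 fibroblast and perichondrium markers fell in both the Ldha and the Nampt flox line. The endothelial sum was 5.26 and 5.64 CPM with GFP and IL-1β and 16.6 and 21.3 CPM with Cre and IL-1β in Ldha flox cells. In Nampt flox cells it was 6.68 and 7.51 against 22.6 and 26.5 CPM. Of this list Kdr reached 21.8 CPM in the 24 floxed libraries, whereas Pecam1, Cdh5, Tek and Emcn stayed at or below 3.00, 2.04, 3.74 and 0.694 CPM. The adipocyte sum went from 43.4 and 43.6 to 25.6 and 27.0 CPM in Ldha flox, from 54.1 and 60.3 to 19.0 and 20.5 CPM in Nampt flox, and from 95.2 and 95.4 to 46.9 and 47.1 CPM in Nfkbiz flox cells. Their part in the results on the 33 genes was not tested. Mmp3, which IL-1β induces, went from 875 and 850 to 171 and 156 CPM in Ldha flox, from 867 and 828 to 157 and 146 CPM in Nampt flox, and from 1797 and 1782 to 286 and 271 CPM in Nfkbiz flox cells.

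Whether the effect of Cre itself differed with IL-1β was tested by the interaction within each line. Of the 33 genes, 3 in Ldha flox cells had a higher and 1 a lower effect with IL-1β (5.89% and 5.60% of all genes), in Nampt flox cells 3 and 1 (12.0% and 9.98%), and in Nfkbiz flox cells 0 by edgeR, 0 by DESeq2 and 0 by limma (1.69% and 3.50% of all genes), with 4 at an unadjusted p under 0.05. With the library number as a block, 5 were higher and 2 lower in Ldha flox (10.7% and 10.5% of all genes) and 6 and 1 in Nampt flox cells (18.8% and 16.2%). Without the block, Bcat2, Abat and Hadh were these 3 in both lines. As a share of the 33, the genes called in either direction were near the 11.5% of all genes in Ldha flox cells. In Nampt flox cells they were under the 22.0% of all genes. Bcat2 was at 33.6 and 36.6 CPM with GFP, 20.1 and 17.4 CPM with GFP and IL-1β, 28.0 and 28.5 CPM with Cre, and 25.3 and 22.0 CPM with Cre and IL-1β in Ldha flox cells. The same groups of Nampt flox cells were at 32.3 and 31.0, 15.6 and 16.0, 24.0 and 27.5, and 23.5 and 21.7 CPM. The fall of Bcat2 with IL-1β was thus smaller with Cre than with GFP virus in both lines. The interaction of Bcat2 was 0.69 (SE 0.140, adjusted p = 0.0119) in Ldha flox and 0.83 (SE 0.141, adjusted p = 0.00192) in Nampt flox cells. That of Abat was 0.78 (SE 0.160, adjusted p = 0.0124) and 0.83 (SE 0.208, adjusted p = 0.0160), and that of Hadh 0.57 (SE 0.120, adjusted p = 0.0145) and 0.77 (SE 0.112, adjusted p = 7.93e-04). Hadh fell with IL-1β under GFP virus in Nampt flox cells, from 53.8 and 54.6 CPM to 42.8 and 37.1 CPM, and was higher with IL-1β under Cre virus, from 48.9 and 44.3 CPM to 59.2 and 57.7 CPM. The lower interactions were those of Acadsb in Ldha flox cells (-0.44, SE 0.121, adjusted p = 0.0469) and of Bckdhb in Nampt flox cells (-0.61, SE 0.177, adjusted p = 0.0309). No call in Ldha flox cells held with each library left out, and the count was 2, 2, 1, 1 and 2 without GFP and IL-1β library 1, Cre library 1, Cre and IL-1β library 1, Cre library 2 and Cre and IL-1β library 2. The calls in Nampt flox cells of Bcat2 and Hadh held each time, and those of Abat and Bckdhb did not. In the Nfkbiz flox line 4 were called without Cre and IL-1β library 1 and 1 without GFP and IL-1β library 1.

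With Cre virus in both arms, IL-1β lowered 15 and raised 1 of the 33 genes in Ldha flox cells, 17 and 2 in Nampt flox cells, and 5 and 0 in Nfkbiz flox cells. Of all genes tested, 16.3% and 19.5% were lower and higher in the Ldha, 19.6% and 24.3% in the Nampt and 10.3% and 11.7% in the Nfkbiz line. The median log2 fold change of the 33 genes was -0.32, -0.30 and -0.25. These counts share their Cre libraries with the comparisons above.

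The Cre effect with IL-1β differed between the 3 lines for 11 of the 33 genes, and 33.5% of the 16727 genes tested differed, so the share is near that of all genes. Without IL-1β it differed for 0 of the 33 by edgeR and by DESeq2 and for 1 by limma (3.62% of all genes by edgeR), with 3 at an unadjusted p under 0.05. For most of the 11, Nfkbiz flox cells stood apart from the other lines. Bcat1 was at -0.40, -0.49 and 0.20 in the Ldha, Nampt and Nfkbiz flox lines (adjusted p = 4.67e-06), and Aldh2 at 0.54, 0.61 and -0.35 (adjusted p = 5.00e-06). Bckdk was at -0.28, -0.20 and 0.38 (adjusted p = 1.44e-04) and Hadh at 0.30, 0.55 and -0.14 (adjusted p = 8.84e-04). In each of these 4 the sign in Nfkbiz flox cells was opposite to that in both other lines. Of the 4, only Bckdk was called in Nfkbiz flox cells. For Bcat1, Aldh2 and Hadh the test shows that the effects differ, not that they reverse. Acadm differed in another way, at -0.65 in Ldha flox against 0.17 in Nampt flox and 0.21 in Nfkbiz flox cells (adjusted p = 4.50e-05), and Acad8 was at 0.17, -0.28 and 0.65 (adjusted p = 0.00175). The others were Dbt, Oxct1, Hadha, Pccb and Mut, with adjusted p-values of 2.82e-04 to 0.0135. Since set 1 holds no Nfkbiz flox library, the title set entered this fit as a covariate, and the lines were not compared within set 1.

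Other genes of the pathway, 38 in 6 lists, moved with IL-1β in part. In the 12 GFP libraries 17 of the 36 tested fell and 4 rose, with a median log2 fold change of -0.18, against 28.3% and 28.0% of all genes tested. Of the carriers of branched-chain amino acids, 2 of 6 fell and 1 rose. Slc7a5, the plasma membrane exchanger, fell by 0.77 and Slc25a44, the mitochondrial carrier, by 0.43. Of the phosphatase of the complex and the transcriptional regulators, 1 of 5 fell and 1 rose. Klf15, which drives branched-chain amino acid breakdown in muscle and heart, fell by 0.92 and the coactivator Ppargc1b rose by 0.70. The electron transfer genes that take electrons from the acyl-CoA dehydrogenases fell 3 of 3, Etfa and Etfb by 0.58 each. Of the genes of ketone body synthesis and release 2 of 3 fell and 1 rose, and Bdh1, hydroxybutyrate dehydrogenase, fell by 1.52. In long-chain fatty acid oxidation 4 of 8 fell and 1 rose, with Decr1 at -0.47 and Acadl at 0.42. In cobalamin, biotin and lipoate supply 5 of 11 fell and 0 rose, with Mmaa at -0.53 and Mmab at -0.44.

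In the same lists Cre with IL-1β raised 9 and lowered 7 of 36 in Ldha flox cells, raised 10 and lowered 12 of 37 in Nampt flox cells, and raised 2 and lowered 0 of 36 in Nfkbiz flox cells. Of all genes, 16.9% and 17.0%, 25.0% and 23.4%, and 8.16% and 9.20% rose and fell in these lines. Bdh1 rose by 1.19 in Ldha flox and 1.20 in Nampt flox cells. The carrier Slc43a2 rose by 1.38 and 1.54, and the cobalamin transporter Tcn2 by 1.04 and 1.45. Ppargc1a, a coactivator of mitochondrial genes, fell by 1.10 and 1.63 and Mmachc, which prepares cobalamin for use, by 1.00 and 1.31. Etfb rose in all 3 lines, by 0.58, 0.60 and 0.50. Without IL-1β, Cre raised 1 and lowered 2 of these genes in Ldha flox cells (3.43% and 2.09% of all genes). It raised 2 and lowered 5 in Nampt flox cells (8.30% and 6.07%). In Nfkbiz flox cells 0 were called by edgeR (0.111% and 0.150% of all genes), and 0 had an unadjusted p under 0.05. The interaction was called higher for 3 and lower for 1 in Ldha flox and higher for 7 and lower for 4 in Nampt flox cells (5.89% and 5.60%, and 12.0% and 9.98% of all genes), and that of Bdh1 was 1.89 and 1.90.

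In wild-type cells, each treated library was set beside the untreated library of its set. Bckdhb was at 20.5 CPM untreated, 44.4 CPM with IL-1β, 22.7 CPM with FX11 and 48.9 CPM with both in set 1, which is 1.11, 0.14 and 1.25 above the untreated library on the log2 scale. In set 2 it was at 9.77 CPM untreated, 11.8 CPM in the library labelled IL-1β, 22.3 CPM in the library labelled FX11 and 25.4 CPM with both. In set 2 the library that stood high in Bckdhb was therefore the one labelled FX11, which also held Mmp3 and Lcn2, and not the one labelled IL-1β. Bcat1 was at 328.5, 146, 308 and 139 CPM in set 1 and at 171, 205, 106 and 125 CPM in set 2, in the order untreated, labelled IL-1β, labelled FX11 and labelled both. Aldh2 was at 184, 253, 217 and 353 CPM in set 1 and at 209, 195, 238 and 279 CPM in set 2, and Abat at 26.2, 12.3, 22.6 and 19.5 CPM and at 37.5, 25.3, 27.1 and 24.0 CPM. Bcat1 was low and Aldh2 high in both libraries with both agents, and Abat was under the untreated level in all 6 treated libraries.

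Of the 33 genes, 23 were lower than in the untreated library in the IL-1β library of set 1 (median log2 difference -0.12) and 25 in the library labelled IL-1β of set 2 (median -0.10). In the libraries labelled FX11 of set 1 and set 2, 12 and 27 were lower, and that of set 2 is the one that held Mmp3 and Lcn2. With both agents 16 and 24 were lower. With both agents 14 were lower and 7 higher in both sets. Each difference sets 1 library beside 1, and no share of all genes is given for these counts. They therefore do not show a response particular to the 33 genes. The test of both agents against untreated over the 8 wild-type libraries called 0 of the 33 genes by edgeR, DESeq2 or limma, where edgeR called 0 of 15461 genes, and 4 of the 33 had an unadjusted p under 0.05. These were Aldh2 (log2 fold change 0.68), Oxct1 (-0.68), Pccb (-0.63) and Acat1 (-0.62), with adjusted p-values of 0.873 to 0.874. The fit over the 4 untreated and doubly treated libraries with the set as a covariate, which leaves out the libraries that run against their labels, called 1 gene, Bckdhb (log2 fold change 1.31, SE 0.173, adjusted p = 0.0256), named after its value was seen, where 2.02% of the 15461 genes were called higher and 1.43% lower. The single agents were not tested, since 1 of their libraries each goes against its label.

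**Figure D4:**
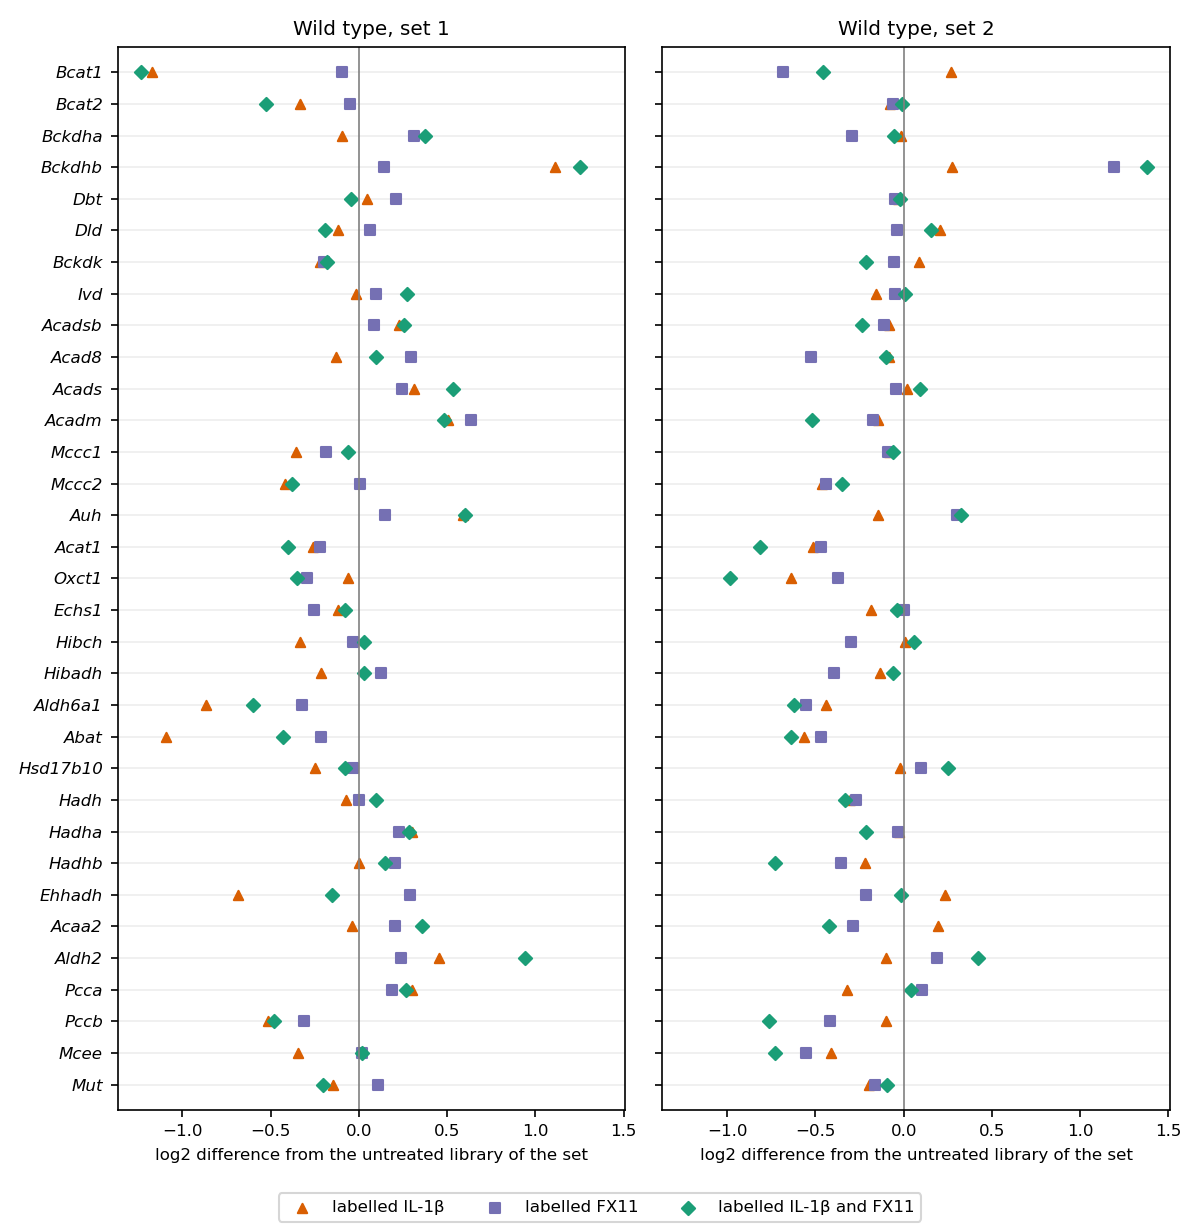
Each row is 1 of the 33 genes and each panel 1 set of wild-type libraries, with the log2 difference of the treated library from the untreated library of its set on the horizontal axis. Triangles are the libraries labelled IL-1β, squares FX11 and diamonds both. In set 1 the triangle and the diamond of Bckdhb stand at 1.11 and 1.25, and in set 2 the square and the diamond at 1.19 and 1.38.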

How the data were processed

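Reads of 32 ribosomal RNA-depleted libraries were aligned by the authors with STAR to the Ensembl release 76 primary assembly (GRCm38), and uniquely aligned unambiguous reads were counted on 41388 genes with featureCounts. The deposited files hold these raw counts, the CPM the authors computed from them and RPKM, which also divides by gene length. Only the counts entered a test. The methods give STAR 2.5.1a and the submitters' processing notes STAR 2.0.4b, and strand use is not stated.

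Libraries were grouped by their labels. Counts were tested with edgeR 4.0.16 (quasi-likelihood, two-sided, TMM factors) in R 4.3.3 over the genes that exceeded 1 CPM in 5 or more libraries (12 GFP libraries, with the line and the title set as covariates) or in 1 or more (other comparisons), with 355 ribosomal RNA genes left out. Calls were made after Benjamini-Hochberg adjustment over all genes tested, at a threshold of 0.05, and called changes are written as rose or fell. Comparisons within a line used its 8 libraries, and differences between lines were F tests over 24 libraries with the title set as a covariate. The standard error is the log2 fold change divided by the square root of F. Scripts were tested on simulated data. Alternatives used DESeq2 1.42.0 and limma 3.58.1 (voomWithQualityWeights, the test the methods name), other filters and factors, other sets of libraries, a replicate block and leaving out each library. Python 3.11.15 with pandas 2.3.3 and matplotlib 3.10.9 made the tables and plots.

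All 33 genes are given for the 12 GFP libraries. In other comparisons the called genes are named, or the 4 highest and 4 lowest where more than 8 were called, with uncalled partners of the same enzyme, and at most 2 called genes per other list. The genes, lists and tests were chosen with earlier results of these data known. The per-library values printed for genes besides those rules were chosen after their values were seen.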

Additional observations from a re-analysis of the deposited data

Results flagged for a closer look

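The results listed here are those for which a test of a difference between effects passed an adjusted p of 0.05, either between the 3 floxed lines or between cells with and without IL-1β. With 2 libraries in each group, no group was large enough for a test of single outlying libraries. No explanation was weighed for any of them.

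The fall of Bcat1 with IL-1β differed between the lines (adjusted p = 0.0137), being larger in Nfkbiz flox cells. The effect of Cre with IL-1β differed between the lines for 11 of the 33 genes, near the 33.5% of all genes tested. The adjusted p was 4.67e-06 for Bcat1, 5.00e-06 for Aldh2, 4.50e-05 for Acadm, 1.44e-04 for Bckdk and 2.82e-04 for Oxct1. It was 8.84e-04 for Hadh, 0.00108 for Hadha, 0.00149 for Mut, 0.00175 for Acad8, 0.00482 for Dbt and 0.0135 for Pccb. Oxct1 was at a log2 fold change of -0.18, -0.38 and 0.17 in the Ldha, Nampt and Nfkbiz flox lines, Hadha at -0.19, -0.13 and 0.24, Mut at -0.46, -0.56 and 0.26, Dbt at -0.45, -0.69 and 0.12, and Pccb at -0.27, 0.26 and 0.15. For 4 of these 5 genes Nfkbiz flox cells had the opposite sign to both other lines, and for Pccb Ldha flox cells did. None of the 5 was called in Nfkbiz flox cells, and Hadha and Pccb were called in none of the lines. These are signs of estimates, and the test shows a difference between lines, not a reversal.

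The effect of Cre differed with IL-1β for 4 genes in Ldha flox cells, by 0.69 on the log2 scale for Bcat2, 0.78 for Abat, 0.57 for Hadh and -0.44 for Acadsb. In Nampt flox cells it differed by 0.83 for Bcat2, 0.83 for Abat, 0.77 for Hadh and -0.61 for Bckdhb. Whether these interactions differed between these lines was not tested. Each interaction rests on the 8 libraries of 1 line. The share called was near that of all genes in Ldha flox (11.5%) and under it in Nampt flox cells (22.0%). No call in Ldha flox cells held with each library left out, and in Nampt flox cells only those of Bcat2 and Hadh did.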

How the results depend on the processing

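The alternatives were DESeq2, limma's voomWithQualityWeights, RLE factors, edgeR's filterByExpr and no filter, the replicate number as a block, all 24 floxed libraries in one model, the title sets alone, added wild-type libraries, and leaving out 1 library at a time, where a group left with 1 library is assumed to vary like the others. With 2 libraries a group, a gene that was not called may still have changed. Of the counts of genes called, those in the 12 GFP libraries (27) ran from 22 to 27 over the other settings and 25 to 29 with 1 library left out. Leaving out 1 library gave 8 to 15 (of 16) for IL-1β in Ldha flox, 14 to 20 (19) in Nampt flox and 5 to 17 (12) in Nfkbiz flox cells. For Cre without IL-1β it gave 0 to 1 (0) in Ldha flox, 2 to 5 (5) in Nampt flox and 0 in Nfkbiz flox cells, and for Cre with IL-1β 5 to 13 (15), 12 to 15 (13) and 1 to 9 (4). For the interaction it gave 1 to 3 (4), 2 to 4 (4) and 0 to 4 (0), and for differences between lines 0 to 2 (1) for IL-1β, 0 to 1 (0) for Cre without and 10 to 13 (11) for Cre with IL-1β. Wild-type cells stayed at 0. For Cre without IL-1β in Ldha flox cells, where 0 were called, DESeq2, limma and no filter gave 1 each and the model of 24 libraries 2. In Nfkbiz flox cells limma gave 20 and the model of 24 libraries 19 for IL-1β (12), the latter 9 for Cre with IL-1β (4) and 2 for the interaction (0), where no filter also gave 2. Between lines, limma, filterByExpr and no filter gave 2 for IL-1β (1), and limma and no filter 1 for Cre without IL-1β (0). In wild-type cells the fit over 4 libraries, added after seeing the data, gave 1 (0). Libraries of the same number share a title set in the Ldha and Nampt lines and in wild-type cells, and only a number in the Nfkbiz line. The replicate block gave 5 (0), 11 (5) and 20 (13) for Cre without IL-1β in Ldha flox, Cre without IL-1β in Nampt flox and Cre with IL-1β in Nampt flox cells. It gave 7 (4) for the interaction in Ldha flox and in Nampt flox cells. The share of all genes called moved with the setting too. For Cre with IL-1β in Nampt flox cells it went from 25.0% higher and 23.4% lower to 29.2% and 29.1% with the block. Where no such share is given, a changed count is not set against that over all genes. The deviations of same-numbered libraries correlated at 0.436 to 0.716 in Ldha flox, 0.515 to 0.668 in Nampt flox, -0.447 to 0.148 in Nfkbiz flox and -0.278 to 0.724 in wild-type cells. The sign changed only for 2 genes near 0 in the 12 GFP libraries. Pcca was at 0.0058 with RLE, 0.0070 with DESeq2, 0.0037 with the block, 0.030 with set 2 alone, 0.048 with the 2 wild-type libraries of set 1 and between -0.063 and 0.090 with 1 library left out. Hibch was at -0.0047 with filterByExpr, -0.032 with 4 and -0.040 with 2 wild-type libraries, and between -0.040 and 0.064 with 1 library left out. The cause of none of these differences was tested.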
